A study of Mus musculus with 2 samples.

Results

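The genes of the proteasome and of its regulators were examined in the thymus of miR-146a Tg and WT mice. Every gene whose symbol starts with Psma, Psmb, Psmc, Psmd, Psme, Psmf or Psmg was taken, apart from 1 gene that was left out and is not analysed here. This gave 50 of the 23296 named genes. A gene was counted as measured at a mean of at least 1 RPKM over both libraries, where RPKM stands for reads per kilobase and is a level per transcript length, corrected for the depth of each library. Of the 50 genes, 49 were measured, among 11095 measured genes in all, and Psma8 was the exception. The symbol also caught Psmc3ip and Psme3ip1, which share only the prefix and encode no proteasome subunit.

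The miR-146a Tg library and the WT library each came from a pool of whole thymus of 1 male and 1 female Balb/c mouse at 5 to 6 weeks of age. The Tg mice expressed miR-146a systemically rather than in a single cell type. Their line was a gift from another laboratory, whereas the WT line came from purchased Balb/c mice. Both were then bred in the authors' facility, and later generations were used. The transgene and the origin of the lines cannot be told apart. With 1 library per genotype there was no replicate check of any difference, no test between genotypes was made, and the values below compare these 2 libraries. The deposited values equalled whole numbers of reads, with 15396696 read pairs behind the Tg library and 14522669 behind the WT library, and 3 read pairs on a transcript of 1 kb came to 0.195 RPKM in Tg and 0.207 RPKM in WT. Ratios are Tg over WT, and the 95% intervals given with them are exact binomial intervals on read pairs that cover counting error only.

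The proteasome degrades proteins tagged with ubiquitin. Its 20S core is a barrel of outer α rings, which gate the entrance, and inner β rings, in which the subunits β1, β2 and β5 carry the active sites. The 19S particle caps the barrel, recognises ubiquitin, removes it and unfolds the protein with a ring of ATPases. In lymphoid cells and under interferon-γ the catalytic subunits are exchanged for the immunoproteasome subunits β1i, β2i and β5i, and PA28αβ can replace the 19S cap, which shapes the peptides that are presented on MHC class I. In the thymus these peptides are displayed to developing thymocytes during selection.

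Proteasome genes were abundant in both libraries. Their levels ran from 9.48 to 236 RPKM in Tg, with a median of 67.9 RPKM, and from 8.50 to 257 RPKM in WT, with a median of 70.1 RPKM. All measured genes had medians of 11.5 RPKM in Tg and 11.3 RPKM in WT. On the log2 scale the levels of the 49 genes correlated across genes between the libraries with a Pearson's r of 0.96, a description over genes that are not independent replicates.

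The module as a whole did not lie to one side, but its parts did. The libraries are bulk RNA of whole thymus, in which fewer cells of a type and less RNA per cell cannot be told apart. Of the 49 measured genes, 24 had a ratio above 1 and 25 a ratio below 1, and the median log2 ratio was -0.0052, beside 0.03 over all measured genes. None was over 1.5-fold higher in Tg, against 7.74% of all measured genes. Psma4, Psmc6, Psme2 and Psme2b, 4 of 49, were over 1.5-fold lower, against 11.0% of all measured genes. Psme2 and Psme2b are near-identical copies and are not separate evidence. At a fold of 1.2, 13 genes were higher, against 25.2% of all genes, and 15 were lower, against 24.7%. Read against all genes, neither count at a fold of 1.2 sets the module apart. The counting interval lay above 1 for 19 of the 49 genes, below 1 for 20 and held 1 for 10. The same count was not made over all measured genes. As most proteasome genes are abundant, their intervals are narrow, and without that comparison these counts cannot show whether the module is set apart. Summed over the 49 genes, the levels came to 3968 RPKM in Tg and 4344 RPKM in WT, while all measured genes summed to 398216 RPKM in Tg and 434408 RPKM in WT. Rescaling both libraries to 1 sum adds 0.12 to every log2 ratio and puts the median of all measured genes at 0.15. With that rescaling, 4 proteasome genes were over 1.5-fold higher, against 11.8% of all measured genes, and 3 over 1.5-fold lower, against 7.93%. At a fold of 1.2 it gave 19 higher, against 37.3% of all measured genes, and 10 lower, against 18.0%.

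**Figure D1:**
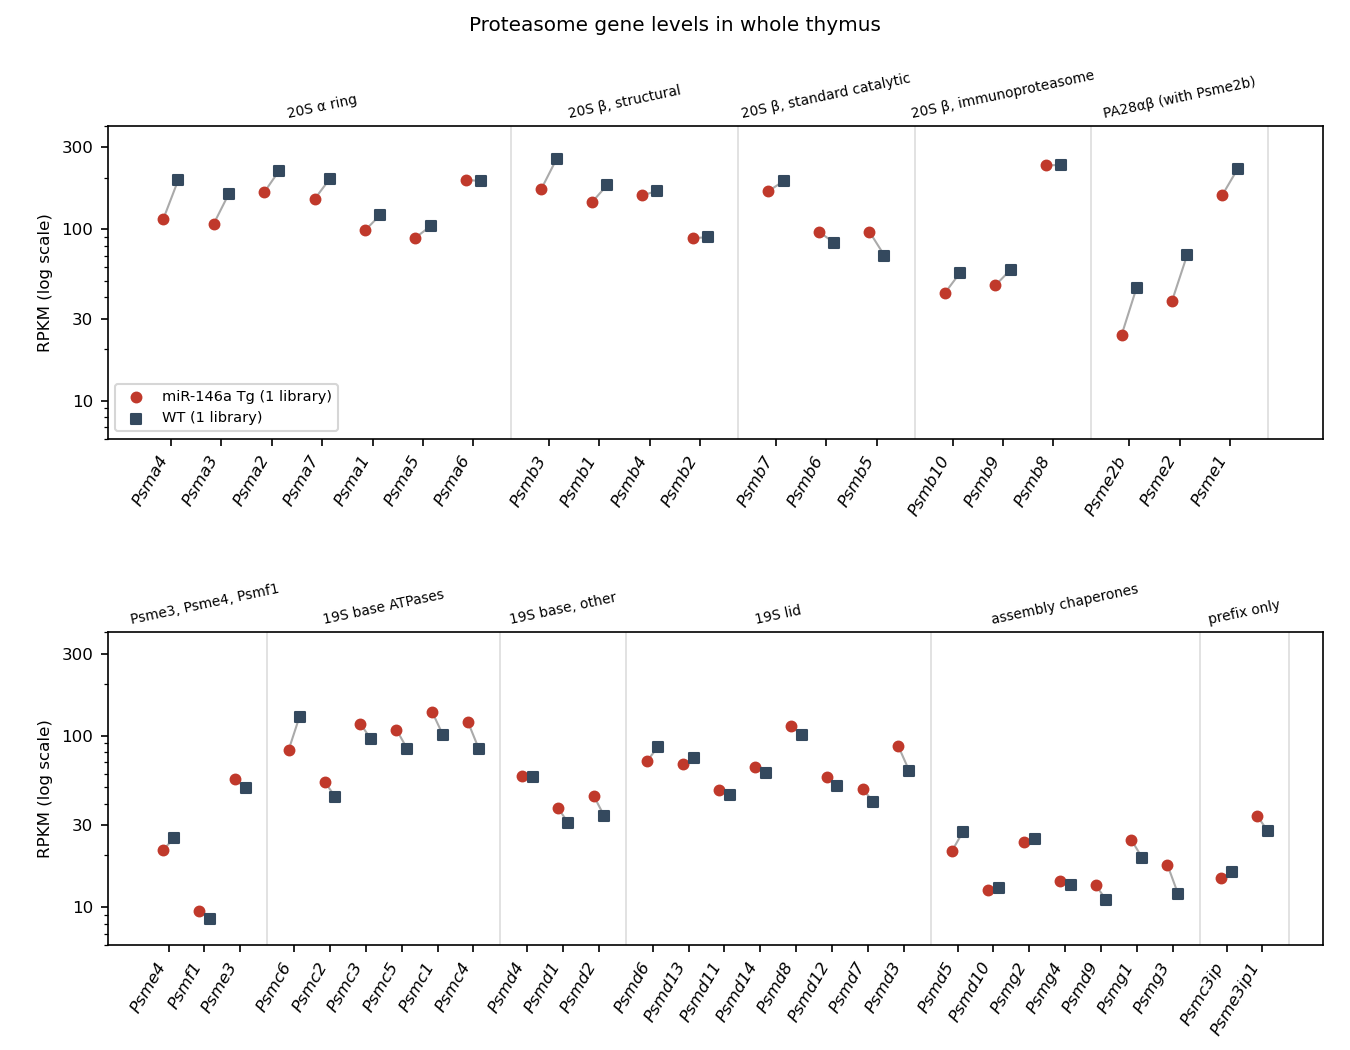
RPKM (log scale) of each measured proteasome gene in the miR-146a Tg library (circle) and the WT library (square), 1 library per genotype, with genes grouped by role and ordered by ratio within a role. Most α ring and all PA28αβ genes lie lower in Tg, and 5 of 6 ATPase genes lie higher.

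Sites for the overexpressed miRNA were looked for in the 3′ UTRs of these genes. The mature miR-146a has the following sequence (RefSeq, GRCm38.p6, chr11:43374435-43374456, minus strand), shown because its seed, bases 2 to 8 in capitals, sets the letters that were searched.
mmu-miR-146a-5p: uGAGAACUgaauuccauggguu
The letters searched in the UTRs were AGTTCTC, and AGTTCTCA for the match that is 1 base longer. The UTRs of all 49 measured genes in the GENCODE M21 annotation were searched, and 2 held a match, which is 4.08% of them, against 10.8% of the 10227 measured genes that had a UTR to search. The proteasome UTRs were shorter, with a median of 213 bases against 964 bases. The 2 sites are shown with the shorter match, AGTTCTC, in capitals. Psmd11 has it at base 152 of a UTR of 1539 bases and Psmd3 at base 368 of a UTR of 379 bases, both on chromosome 11.
Psmd11: ataggcggccAGTTCTCatgtaatccg
Psmd3: aacaataaaaAGTTCTCcagag
The Psmd11 site matches 8 bases, counting the a that follows the capitals, and the Psmd3 site 7. Both genes encode subunits of the 19S lid. Psmd11 had 47.8 RPKM in Tg and 44.8 RPKM in WT (ratio 1.07, interval 0.986 to 1.16), and Psmd3 had 86.5 RPKM in Tg and 62.5 RPKM in WT (ratio 1.38, interval 1.31 to 1.47), so neither gene with a match was lower in Tg. A match of letters is a description of the UTR and not a tested site.

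The α ring of the 20S core was lower in Tg for most of its genes. Of 7 measured genes, 6 had a ratio below 1 with an interval that did not reach 1. Over 1.2-fold lower were 5 of the 7, against 24.7% of all measured genes, and the median log2 ratio was -0.39. Psma4 (α3; chr9:54950781-54958034) had 114 RPKM in Tg and 194 RPKM in WT, which is 1.70-fold lower (interval 1.61 to 1.80), on 1929 and 3094 read pairs. Psma3 (α7) had 107 RPKM in Tg and 161 RPKM in WT, a ratio of 0.668 (0.643 to 0.693), just short of a fold of 1.5. Psma2 (α2), at 164 RPKM in Tg and 220.0 RPKM in WT, had a ratio of 0.744 (0.722 to 0.768). The next genes in this order were closer to 1. Psma7 (α4) stood at 149.7 RPKM in Tg and 196 RPKM in WT, Psma1 (α6) at 98.3 RPKM in Tg and 121 RPKM in WT, and Psma5 (α5) at 89.2 RPKM in Tg and 104 RPKM in WT. Psma6 (α1) was the exception among the measured α genes, with 195 RPKM in Tg and 190.3 RPKM in WT and a ratio of 1.02 (0.971 to 1.08) that fell below 1 with upper quartile scaling. By level it was the highest of the 7 measured α genes in Tg, but below Psma2, Psma7 and Psma4 in WT. Psma8, an α subunit of the testis, was below the floor, with 0.115 RPKM in Tg and 0.163 RPKM in WT on 3 and 4 read pairs.

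The structural β genes, whose proteins form the inner rings without an active site, had ratios below 1 in the values as deposited. Psmb3 (β3) had 173 RPKM in Tg and 257 RPKM in WT, a ratio of 0.671 (0.633 to 0.711), and was the most abundant of the 49 genes in the WT library. Psmb1 (β6) had 143.5 RPKM in Tg and 181 RPKM in WT, a ratio of 0.794 (0.751 to 0.839). Psmb4 (β7), at 157 RPKM in Tg and 168 RPKM in WT, had a ratio of 0.938 (0.885 to 0.994). Psmb2 (β4), at 88.8 RPKM in Tg and 89.7 RPKM in WT, had a ratio of 0.990 (0.911 to 1.08). Psmb3 and Psmb1 thus lay over 1.2-fold lower, whereas Psmb4 and Psmb2 passed above 1 when both libraries were rescaled to 1 sum or when the trend over transcript length was taken out. The median log2 ratio of the 4 genes was -0.21.

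The standard catalytic genes did not share the direction of the α ring. Psmb5, which encodes β5 with the chymotrypsin-like activity, had 96.8 RPKM in Tg and 70.1 RPKM in WT, a ratio of 1.38 (1.27 to 1.51) on 1298 and 887 read pairs. Psmb6, which encodes β1 with the caspase-like activity, had 96.6 RPKM in Tg and 83.5 RPKM in WT, a ratio of 1.16 (1.07 to 1.248). Psmb7, which encodes β2 with the trypsin-like activity, had 167 RPKM in Tg and 191 RPKM in WT, a ratio of 0.874 (0.827 to 0.923). Of the 3 genes, 1 was over 1.2-fold higher and none over 1.2-fold lower, and Psmb5 had the highest ratio of the 14 measured α and standard β genes.

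The immunoproteasome catalytic genes had ratios below 1. Psmb8, which encodes β5i, was the most abundant of the 49 genes in the Tg library, with 236 RPKM in Tg and 237 RPKM in WT. Its ratio of 0.996 (0.955 to 1.0396, on 4441 and 4204 read pairs) was close to 1 and passed above it with both libraries rescaled to 1 sum. Psmb9, which encodes β1i, had 47.1 RPKM in Tg and 58.0 RPKM in WT, a ratio of 0.811 (0.725 to 0.907). Psmb10, which encodes β2i, had 42.5 RPKM in Tg and 55.7 RPKM in WT, a ratio of 0.762 (0.695 to 0.836). Psmb9 and Psmb10 were over 1.2-fold lower, and in both libraries they lay well below Psmb8 in level. The median log2 ratio of the 3 genes, -0.30, came to -0.083 once the trend over transcript length was taken out.

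Each immunoproteasome subunit takes the place of 1 standard subunit, so the pairs were set against each other within a library, where the scaling between libraries cancels. At the β5 position Psmb8 stood at 2.44 times Psmb5 in Tg and 3.38 times in WT, and the ratio of these ratios was 0.722 (conditional exact 95% interval 0.655 to 0.795). At the β1 position Psmb9 stood at 0.487 times Psmb6 in Tg and 0.695 times in WT, a ratio of ratios of 0.701 (0.612 to 0.803). At the β2 position Psmb10 stood at 0.255 times Psmb7 in Tg and 0.292 times in WT, a ratio of ratios of 0.873 (0.783 to 0.972). The immunoproteasome gene was lower relative to its counterpart in Tg at all 3 positions, with Psmb5 and Psmb6 higher and Psmb9, Psmb10 and Psmb7 lower in Tg. Of the 11 other ways of processing the values, only an added pseudocount and removal of the length trend could change these ratios of ratios. Over all 11 they ranged from 0.631 to 0.725 at β5, from 0.701 to 0.770 at β1 and from 0.804 to 0.877 at β2. As a share of the summed RPKM of each pair, Psmb8 made up 70.9% in Tg and 77.1% in WT, Psmb9 32.8% in Tg and 41.0% in WT, and Psmb10 20.3% in Tg and 22.6% in WT. Over the 6 catalytic genes together the immunoproteasome share was 47.5% in Tg and 50.4% in WT.

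**Figure D2:**
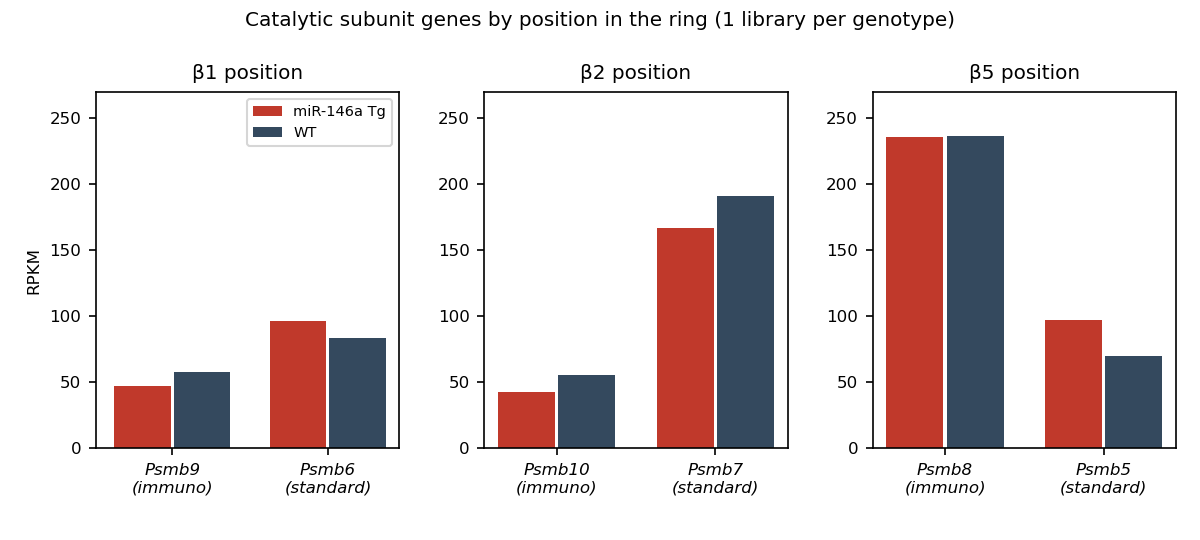
RPKM of the immunoproteasome gene and its standard counterpart at each catalytic position of the β ring, miR-146a Tg beside WT. Bars are single libraries, so there are no error bars. Psmb8 is nearly level between the genotypes while Psmb5 is higher in Tg, and Psmb9 and Psmb10 are lower in Tg.

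Psmb8 and Psmb9 lie side by side in the MHC region of chromosome 17 with the genes of the TAP peptide transporter, in the order Psmb9 (34182030 to 34187330), Tap1 (34187556 to 34197225), Psmb8 (34198195 to 34201454) and Tap2 (34204479 to 34216321, GRCm38). These neighbours did not share a direction. Psmb9 had a ratio of 0.811, Tap1 0.947 (22.9 RPKM in Tg and 24.2 RPKM in WT, interval 0.868 to 1.03), Psmb8 0.996 and Tap2 1.21 (102 RPKM in Tg and 84.4 RPKM in WT, interval 1.16 to 1.27). Whether the authors counted reads by strand is not given in the sources used here.

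Promoters of the catalytic and activator genes were read for letters known from stress and interferon responses, in windows of 250 bases before to 50 bases after the gene start (RefSeq, GRCm38.p6) that were on hand for 42 of the 50 genes. The core of the antioxidant response element, TGACNNNGC on either strand, occurred in 6 of the 42 windows (14.3%), against 12.4% of 32851 promoter windows and 16.7% of 8776 measured genes with a window. Both standard catalytic genes with a window, Psmb5 and Psmb6, held it, and none of the 5 immunoproteasome genes did. The other 4 genes with it were Psmc6 (ratio 0.643), Psme4 (0.856), Psmd12 (1.14) and Psmd9 (1.22), so genes with these letters lay on both sides of 1. The interferon-type repeat GAAANNGAA was in 7 of the 42 windows (16.7%), against 8.56% of all windows, and 1 of the 7 belonged to an immunoproteasome gene, Psme1. The core of the gamma-activated site, TTCNNNGAA, was in 3 of the 42 windows (7.14%), against 8.30% of all windows, and 1 of these was Psmb8. A stretch around the match, in capitals, is shown for the standard catalytic and the immunoproteasome genes that held one, and each of these 4 windows matched only 1 of the 3 motifs. The Psmb5 stretch is chr14:54618019-54618057 on the minus strand, Psmb6 is chr11:70525333-70525371, Psmb8 is chr17:34198083-34198121 and Psme1 is chr14:55578489-55578527, these 3 on the plus strand.
Psmb5: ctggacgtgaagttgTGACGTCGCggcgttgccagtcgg
Psmb6: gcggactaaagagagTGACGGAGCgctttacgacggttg
Psmb8: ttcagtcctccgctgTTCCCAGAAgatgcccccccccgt
Psme1: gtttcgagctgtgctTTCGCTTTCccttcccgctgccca
The ratios beside them were 1.38 for Psmb5, 1.16 for Psmb6, 0.996 for Psmb8 and 0.708 for Psme1. A match of letters is a description of the promoter, and windows without one say only that these letters are not in them.

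PA28αβ, the activator that docks on the core in place of the 19S cap, was lower in Tg in each of its genes. Psme1, which encodes PA28α, had 158 RPKM in Tg and 224 RPKM in WT, a ratio of 0.708 (0.671 to 0.746) on 2384 and 3178 read pairs. Psme2, which encodes PA28β, had 38.0 RPKM in Tg and 70.5 RPKM in WT, which is 1.85-fold lower (1.66 to 2.07). The second listed Psme2 transcript had 37.0 RPKM in Tg and 59.0 RPKM in WT, a ratio of 0.627. Psme2b, a near-identical copy of Psme2 on chromosome 11, had 24.0 RPKM in Tg and 45.6 RPKM in WT, a ratio of 0.527 (0.464 to 0.597). Only uniquely mapped reads were counted, so reads that fit Psme2 and Psme2b alike would count for neither gene. The values of both are therefore uncertain, and the 2 genes are not separate evidence. Without Psme2b the median log2 ratio of PA28αβ was -0.69, against -0.89 with it. Psme1 (55578494 to 55581527) and Psme2 (55587440 to 55591101) are neighbours on chromosome 14, and both were lower in Tg.

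The remaining activators and the inhibitor stayed within 1.2-fold. Psme3, which encodes the nuclear activator PA28γ, had 55.6 RPKM in Tg and 49.5 RPKM in WT, a ratio of 1.12 (1.05 to 1.19). Set against Psme3 in the same library, Psme1 stood at 2.85 times its level in Tg and 4.52 times in WT, and Psme2 at 0.684 times in Tg and 1.42 times in WT. Psme4, which encodes the activator PA200, had 21.6 RPKM in Tg and 25.2 RPKM in WT, a ratio of 0.856 (0.807 to 0.908), and Psmf1, which encodes the inhibitor PI31, had 9.48 RPKM in Tg and 8.50 RPKM in WT, a ratio of 1.12 (0.981 to 1.27).

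Taking Psmb8, Psmb9, Psmb10, Psme1 and Psme2 as the immunoproteasome genes, none of the 5 had a ratio above 1 (Psmb8 did after rescaling to 1 sum), 4 were over 1.2-fold lower and 1 over 1.5-fold lower. Their median log2 ratio was -0.39, beside 0.06 over the other 44 measured proteasome genes. Of these 44, 13 were over 1.2-fold higher and 11 over 1.2-fold lower. Over all measured genes, 25.2% were over 1.2-fold higher, 24.7% over 1.2-fold lower and 11.0% over 1.5-fold lower, so the counts of the 44 lie near these shares. The difference of the medians was -0.45, and it lay between -0.48 and -0.42 under the other ways of processing the values. The scalings between libraries cannot change it. Low ratios were also found outside the 5. The 7 measured α ring genes likewise had a median of -0.39, and the 14 α and standard β genes had -0.26. The other 44 genes pool these with the 17 Psmc and Psmd genes of the 19S particle, whose median was 0.25. Psma4, Psmc6, Psma3 and Psmb3, all of the standard particle, had lower ratios than Psme1, Psmb10, Psmb9 and Psmb8.

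Most Psmc and Psmd genes of the 19S regulatory particle ran the other way from the core. In the base of the particle, 5 of 6 ATPase genes were over 1.2-fold higher, against 25.2% of all measured genes. The median log2 ratio of the 6 was 0.34. Psmc4 (Rpt3) had 119.6 RPKM in Tg and 83.8 RPKM in WT, a ratio of 1.43 (1.34 to 1.52). Psmc1 (Rpt2) had 137 RPKM in Tg and 101 RPKM in WT, a ratio of 1.36 (1.29 to 1.44). Psmc3 (Rpt5) had 117 RPKM in Tg and 94.9 RPKM in WT, a ratio of 1.23 (1.17 to 1.30), and Psmc5 and Psmc2 had ratios of 1.29 and 1.23. The ATPases form 1 ring with each subunit present once, and Psmc6 (Rpt4) departed from the other members. Psmc6 had 82.8 RPKM in Tg and 129 RPKM in WT, which is 1.56-fold lower, with a ratio of 0.643 (0.607 to 0.681) on 1995 and 2927 read pairs. It had the highest level of the 6 ATPase genes in WT and the second lowest in Tg, and relative to Psmc4 it stood at 0.693 in Tg and 1.54 in WT, a ratio of ratios of 0.450 (0.414 to 0.490).

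The non-ATPase genes of the base were level or higher. Psmd2 (Rpn1), a scaffold that receives ubiquitin shuttles, had 44.7 RPKM in Tg and 33.9 RPKM in WT, a ratio of 1.32 (1.23 to 1.41), and Psmd1 (Rpn2) had 37.9 RPKM in Tg and 30.9 RPKM in WT, a ratio of 1.22 (1.14 to 1.31). Psmd4 (Rpn10), a ubiquitin receptor, had 57.7 RPKM in Tg and 57.4 RPKM in WT, and its ratio of 1.01 (0.926 to 1.09) fell below 1 with median centring and with upper quartile scaling.

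In the lid, which holds the deubiquitinating enzyme Psmd14 (Rpn11) in a horseshoe of scaffold subunits, 6 of the 8 genes with a Psmd symbol had ratios above 1, and the median log2 ratio was 0.15. The lid also holds Sem1, which the symbols did not catch and which is given with the associated factors. Of the 8, Psmd3 (Rpn3) was the only one over 1.2-fold higher and Psmd6 (Rpn7) the only one over 1.2-fold lower, with 71.5 RPKM in Tg and 86.1 RPKM in WT and a ratio of 0.8298 (0.772 to 0.892). Psmd6 stood at 0.826 times Psmd3 in Tg and 1.38 times in WT. Psmd8 (Rpn12), the most abundant of the 8 in both libraries, had 114 RPKM in Tg and 101 RPKM in WT, a ratio of 1.13 (1.07 to 1.198). Psmd7, Psmd12, Psmd8, Psmd14 and Psmd11 had ratios between 1.07 and 1.19, and Psmd13 had a ratio of 0.914.

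**Figure D3:**
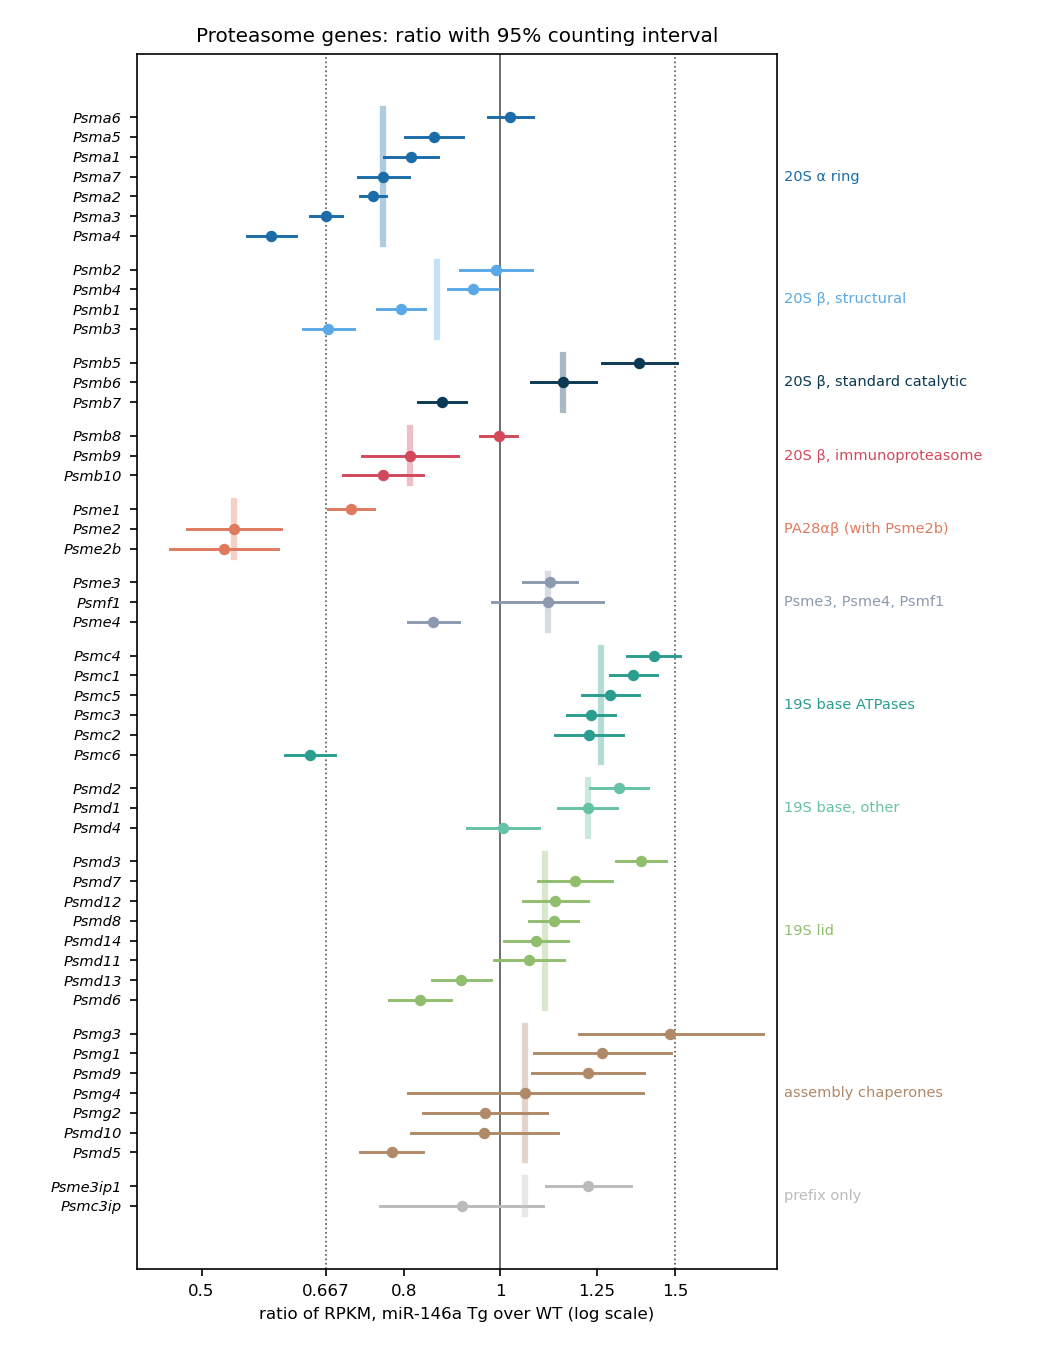
Ratio of RPKM, miR-146a Tg over WT (log scale), of each measured proteasome gene with its 95% counting interval (bar) and the median of each role (pale vertical line). The dotted lines mark a fold of 1.5 in either direction. Most α ring genes and all PA28αβ genes lie to the left of 1, the 19S genes mostly to the right, and Psmc6 lies apart from the other ATPase genes.

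Core and cap were then compared as particles. Of the 14 measured α and standard β genes of the 20S core, 11 had a ratio below 1, 7 were over 1.2-fold lower and 1 over 1.2-fold higher, with a median log2 ratio of -0.26. Of the 17 Psmc and Psmd genes of the 19S particle, 14 had a ratio above 1, 8 were over 1.2-fold higher and 2 over 1.2-fold lower, with a median log2 ratio of 0.25. Over all measured genes, 25.2% were over 1.2-fold higher and 24.7% over 1.2-fold lower. Sem1 and Adrm1, also of the 19S particle, are not among the 17, and their ratios were 0.760 and 1.26. Sem1, at 307 RPKM in Tg and 404 RPKM in WT, thus lay on the side of the core. The medians of other genes in the same ranges of transcript length and level were -0.02 over 338 genes for the core and 0.06 over 836 genes for the cap. The core range ran from 731 nucleotides to the 2840 of Psma3. Apart from Psma3 and Psma2 (2838), the longest core gene was Psma1 at 1255 nucleotides, so this range matches the core only loosely in length. The short β genes read differently in their own narrower ranges, where other genes had medians of -0.27 over 47 genes for the structural β genes, which at -0.21 were not lower than these, -0.28 over 30 genes for the standard catalytic genes and -0.16 over 156 genes for the immunoproteasome catalytic genes. The median level of the core genes was 1.899 times that of the 19S genes in Tg and 2.79 times in WT, a ratio within each library that does not depend on scaling. Subunits of 1 ring are present in equal number in the particle, but their mRNA levels spread in both libraries. The highest level over the lowest was 2.18 in Tg and 2.11 in WT among the measured α genes, 2.55 in Tg and 2.94 in WT among the ATPases, and 2.38 in Tg and 2.45 in WT among the 8 Psmd genes of the lid.

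The ratios of all genes had a trend over transcript length, with short transcripts lower in Tg. Core genes are short, with a median of 1016.5 nucleotides, and 19S genes longer, with a median of 1564 nucleotides. With the running median of genes of similar length taken out, the medians were -0.22 for the core and 0.19 for the 19S genes. Within the module length ordered the genes weakly, with a Pearson's r of 0.15 and a Spearman's rho of 0.21 across the 49 genes. The share of length in these ratios was not tested further.

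**Figure D4:**
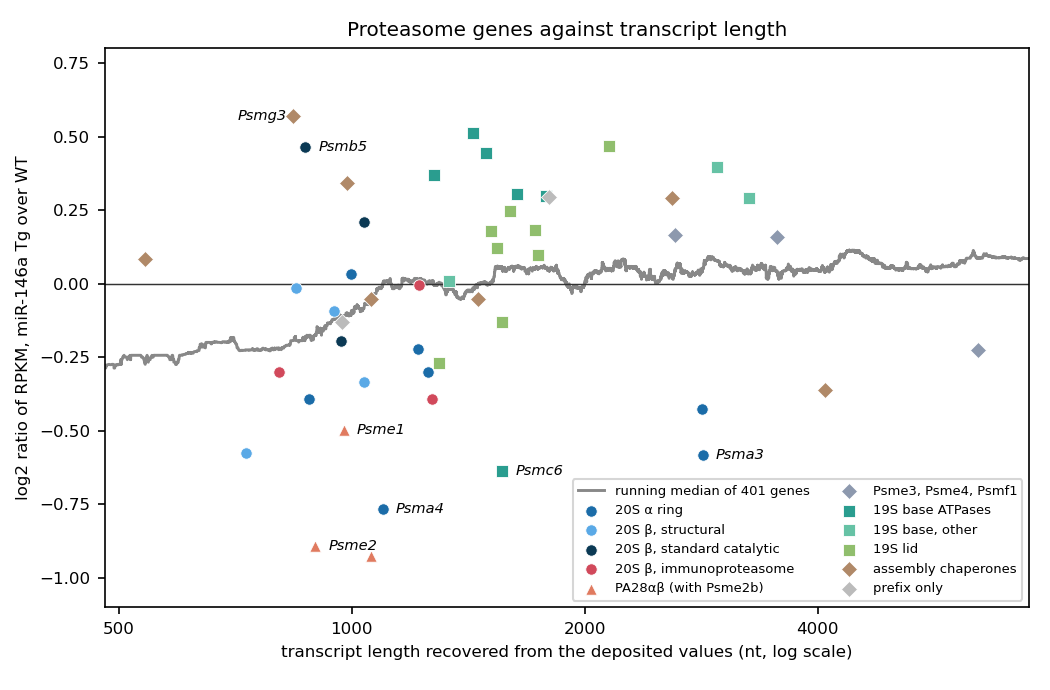
Log2 ratio of RPKM, miR-146a Tg over WT, of each measured proteasome gene against transcript length in nucleotides (log scale), with roles in colours and the running median of all measured genes in grey. The grey line lies below 0 for short transcripts, and Psma4, Psme2 and Psmc6 lie far below it while Psmb5 and Psmg3 lie far above it.

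Chaperones that assemble the particle were low in level, at 12.5 to 24.5 RPKM in Tg and 10.9 to 27.4 RPKM in WT, and so less precise. Of 7 genes, 3 were over 1.2-fold higher and 1 over 1.2-fold lower, against 25.2% and 24.7% of all measured genes. The median log2 ratio of the 7 was 0.08. Psmg3, a chaperone of the α ring, had the highest ratio of the module, with 17.7 RPKM in Tg and 11.9 RPKM in WT, a ratio of 1.48 (1.199 to 1.84) on only 228 and 145 read pairs. Psmg1, also of the α ring, had 24.5 RPKM in Tg and 19.4 RPKM in WT, a ratio of 1.27 (1.08 to 1.49), while its partner Psmg2 had 24.0 RPKM in Tg and 24.8 RPKM in WT. Psmg2 had a ratio of 0.965 (0.836 to 1.11) that passed above 1 with both libraries rescaled to 1 sum and with the length trend taken out, and Psmg4 had a ratio of 1.06 (0.808 to 1.39). The base chaperones differed among themselves. Psmd5 had 21.3 RPKM in Tg and 27.4 RPKM in WT, a ratio of 0.778 (0.723 to 0.836), Psmd9 had a ratio of 1.22 (1.08 to 1.396), and Psmd10, known as gankyrin, had a ratio of 0.964 (0.813 to 1.14) that passed above 1 with both libraries rescaled to 1 sum. The genes that share only the prefix were Psmc3ip with 14.7 RPKM in Tg and 16.1 RPKM in WT (ratio 0.914) and Psme3ip1 with 34.1 RPKM in Tg and 27.8 RPKM in WT (ratio 1.23).

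Other genes that serve the proteasome were read from lists of associated factors. Of 15 measured genes, 3 were over 1.2-fold higher, 3 over 1.2-fold lower and 1, Ngly1, over 1.5-fold lower. The shares of all measured genes were 25.2%, 24.7% and 11.0% in this order, so these counts do not set the list apart. The median log2 ratio of the 15 genes was 0.08. Ngly1, an enzyme that removes glycans from misfolded proteins, had 21.7 RPKM in Tg and 32.9 RPKM in WT. Sem1, the smallest lid subunit, had 307 RPKM in Tg and 404 RPKM in WT, a ratio of 0.760 (0.736 to 0.784). Pomp, the chaperone that matures the β rings, had 173 RPKM in Tg and 217 RPKM in WT, a ratio of 0.794 (0.761 to 0.829). Both lay on the side of the core genes. Adrm1, a ubiquitin receptor of the 19S particle, had 71.9 RPKM in Tg and 57.2 RPKM in WT, a ratio of 1.26 (1.16 to 1.36), on the side of the 19S genes. Akirin2, which brings proteasomes into the nucleus, had 41.2 RPKM in Tg and 40.5 RPKM in WT. Nfe2l1, the transcription factor that raises proteasome genes when the particle is inhibited, had 5.36 RPKM in Tg and 4.87 RPKM in WT, a ratio of 1.10 (0.946 to 1.28).

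Among 12 genes of ubiquitin and its shuttles, 1 was over 1.5-fold higher and 1 over 1.5-fold lower. These counts lie near the 7.74% and 11.0% of all measured genes. The median log2 ratio of the 12 genes was 0.21. Vcp, the unfoldase that hands ubiquitinated proteins to the proteasome, had 180.0 RPKM in Tg and 116 RPKM in WT, a ratio of 1.55 (1.4996 to 1.60). Ubb, which encodes a polyubiquitin, had 1286 RPKM in Tg and 935 RPKM in WT, a ratio of 1.38. Rps27a, which encodes ubiquitin fused to a ribosomal protein, had 588 RPKM in Tg and 1170.2 RPKM in WT, a ratio of 0.502 (0.487 to 0.518). Ubiquitin genes share near-identical repeats and have processed copies in the genome, so values from uniquely mapped reads are uncertain for them.

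Of 13 genes on the interferon-γ side of antigen processing, none was over 1.5-fold higher, 4 were over 1.5-fold lower and 7 over 1.2-fold lower. The shares of all measured genes were 7.74%, 11.0% and 24.7% in this order. The median log2 ratio of the 13 genes was -0.28. Nlrc5, the transactivator of MHC class I genes, had 5.78 RPKM in Tg and 14.7 RPKM in WT, a ratio of 0.394 (0.358 to 0.434). Irf1, a transcription factor that carries the interferon signal to immunoproteasome promoters, had 19.05 RPKM in Tg and 23.1 RPKM in WT, a ratio of 0.826. B2m, which encodes the MHC class I light chain, had 360 RPKM in Tg and 937 RPKM in WT, a ratio of 0.384 (0.371 to 0.397). Ifngr1, a chain of the interferon-γ receptor, had 171 RPKM in Tg and 146 RPKM in WT, a ratio of 1.17, and Tapbpl, a peptide editor of MHC class I, had 39.0 RPKM in Tg and 32.6 RPKM in WT. The larger differences in this list thus lay in Nlrc5 and B2m rather than in the immunoproteasome genes.

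Marker genes of other cells and states also differed in level between the libraries. Thymocyte genes were abundant in both, and of the 12 measured genes 9 had ratios above 1 and 3 below 1, with a median log2 ratio of 0.18. Cd8b1 had 1063 RPKM in Tg and 945 RPKM in WT, whereas Cd3g had 692 RPKM in Tg and 1023 RPKM in WT. All 10 markers of mature SP thymocytes were over 1.5-fold lower, against 11.0% of all measured genes. They summed to 616 RPKM in Tg and 1276 RPKM in WT. Among them, Il7r, Cd53, Gimap3 and Gimap4 were reported by the authors as downregulated in these data. All 10 genes of cell division were over 1.5-fold higher, against 7.74% of all measured genes. These summed to 767 RPKM in Tg and 266 RPKM in WT. Both lists were chosen with earlier results of these data known. Neutrophil markers summed to 138 RPKM in Tg and 547 RPKM in WT, over 6 of 8 measured genes that were each over 1.5-fold lower, and erythroid markers to 93.1 RPKM in Tg and 170.3 RPKM in WT over 4 of 7. Macrophage markers summed to 50.3 RPKM in Tg and 72.8 RPKM in WT over 5 genes, but without Lyz2, which neutrophils also express, the other 4 summed to 15.6 RPKM in Tg and 16.6 RPKM in WT. B cell markers summed to 23.4 RPKM in Tg and 33.0 RPKM in WT over 5 of 6, and dendritic cell markers to 4.18 RPKM in Tg and 4.13 RPKM in WT over 2 of 8. Of the epithelial markers, 4 of 9 cortical genes were measured, at a summed 11.1 RPKM in Tg and 11.6 RPKM in WT, no medullary gene of 7 was, and Foxn1 was at 0.0797 RPKM in Tg and 0.0422 RPKM in WT. The part of these markers in the proteasome ratios was not tested.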

How the data were processed

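Thymus RNA of the 2 libraries was selected with oligo(dT) beads and sequenced on an Illumina HiSeq instrument. The authors mapped reads to mm10 with a program spelled HotHap2, counted uniquely mapped reads and deposited RPKM values for 30533 RefSeq transcripts, although the methods describe a fragment-based unit. Neither the mapper's version nor the strand setting is given in the sources used here. RefSeq GRCm38.p6 and GENCODE M21 supplied gene names (98.9% named), and each gene was represented by the transcript of highest mean RPKM. Whole reads were recovered from 100% of the RPKM values within a relative tolerance of 1e-11, and all read numbers were even or 1, so 2 reads were taken as a pair. For 7 members more than 1 transcript length would give whole pairs, and the length nearest to the annotation was used where it lay within 10%. Clopper-Pearson intervals of 95% cover counting error only. Log2 ratios used no pseudocount and no test was run, as each genotype had 1 library. Alternatives were sums or means of transcripts, pseudocounts of 1 and 0.1 RPKM, a floor of 10 RPKM or none, 3 scalings and subtraction of the length trend. Removal of Psme2b and the 2 prefix-only genes was chosen after seeing the data. Members given in full were the immunoproteasome genes and counterparts, the 6 highest and 6 lowest ratios from a mean of 10 RPKM, the 2 most abundant genes of each role and those over 1.5-fold. Of the other lists the 4 genes with the highest mean and 8 fixed genes were eligible, some of which are not reported here, and genes named beyond these were chosen after their values were seen. The members and lists were chosen with earlier results of these data known. A comparison of protein sequences was planned and not run. Python 3.11.15, numpy 2.4.6, pandas 2.3.3, scipy 1.17.1 and matplotlib 3.10.9 were used.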

Additional observations from a re-analysis of the deposited data

How the results depend on the processing

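Sums or means of transcripts, the pseudocounts, no floor, median centring and upper quartile scaling left the counts of genes within 1.5 times those reported, and the medians and ratios of ratios within their counting error. Among these settings only the pseudocounts could change the ratios of ratios. With a floor of 10 RPKM, which removes Psmf1, the median log2 ratio of the other activators was -0.029. Rescaling both libraries to 1 sum, which adds 0.12 to every log2 ratio, gave 4 genes over 1.5-fold higher in place of 0 and medians of -0.27 for the α ring, -0.092 for the structural β genes, 0.33 for the standard catalytic genes, 0.28 for the other activators, 0.46 for the ATPases, 0.41 for the other base genes and 0.27 for the lid. Subtraction of the length trend gave 2 genes over 1.5-fold higher, medians of -0.30 for the α ring, -0.11 for the structural β genes, -0.083 for the immunoproteasome catalytic genes and -0.72 for PA28αβ, and 0.631 for the ratio of Psmb8/Psmb5 ratios. Without Psme2b and the prefix-only genes, a choice made after seeing the data, the PA28αβ median was -0.69. The median of the whole module, -0.0052, passed above 0 under the last 3 of these. Of the single genes, 5 of 49 changed sign with both sums equal (Psmb2, Psmb4, Psmb8, Psmd10 and Psmg2) and 3 with the length trend removed (Psmb2, Psmb4 and Psmg2).

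No paired analysis was possible because each genotype had 1 library, and no library could be left out. Depth was not the limit for core and 19S genes, whereas Psmg3, Psmg4 and Psmc3ip rest on the fewest read pairs of the 49 genes, and Psma8 is below the floor.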
